A study of Homo sapiens with 10 samples.

Results

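Aldehyde dehydrogenases oxidise aldehydes to carboxylic acids, and 9 genes of this family (ALDH1A1, ALDH1A3, ALDH2, ALDH3A1, ALDH3A2, ALDH3B1, ALDH3B2, ALDH7A1 and ALDH9A1) were followed in RWPE-1, a human prostate epithelial line immortalised with a viral oncogene that does not form tumours. They were read from every probe set annotated to exactly 1 of these genes, which gave 17 of the 54675 probe sets on the Affymetrix HG-U133 Plus 2.0 array. The control cells (3 arrays) expressed BirA, a biotin ligase, and the other cells expressed BirA together with ETV1 (4 arrays) or with ERG (3 arrays), both ETS transcription factors that gene fusions activate in prostate cancer. All cells were stable clones selected after infection with MSCV retroviruses and grown under normal conditions, and the labels do not say whether the arrays of a group came from separately derived clones. The standard deviations and standard errors therefore measure the spread between these arrays, which may be technical. The design text speaks of 3 replicates where the labels give 4 ETV1 arrays, and silencing experiments in other lines were not analysed here.

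The enzymes of this family take NAD or NADP as cofactor and differ in the aldehydes they accept. ALDH1A1 and ALDH1A3 make retinoic acid from retinal, and high activity of this subfamily is widely used to mark progenitor-like epithelial cells. ALDH2 clears acetaldehyde in mitochondria, the ALDH3 enzymes oxidise aromatic, medium-chain and lipid-derived aldehydes, and ALDH7A1 and ALDH9A1 act in lysine, choline and polyamine breakdown. The genes were chosen by their measured differences between these groups, among them the rise of ALDH3A1 in ETV1 cells. Their differences are therefore given as a description without p-values. Where a member is said to pass or not, that places it against the threshold used for all fitted probe sets and is no test of the member.

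The libraries of the ERG label were unlike the rest. Spearman correlations across all probe sets were 0.766 to 0.811 between them and the control arrays, against 0.956 to 0.969 between ETV1 and control arrays. Their median intensity was 48.45 to 52.55, against 70.9 to 75.5 on the other arrays, and ACTB read 2.75 to 3.07 times as bright at its 3 prime end as at its 5 prime end, against 1.24 to 1.40 times elsewhere. For GAPDH this ratio overlapped that of other arrays, at 0.946 to 1.04 against 0.893 to 0.931 in control and 0.994 to 1.05 in ETV1 cells. ERG itself did not settle the label: of its 4 probe sets the brightest in control arrays went from 186 ± 4.61 to 9.43 ± 1.57 (SD, n = 3 each), and the dimmest from 9.04 ± 3.23 to 36.5 ± 12.3. The other 2 had higher means on the arrays labelled ERG, with overlapping arrays (25.5 ± 12.5 to 33.5 ± 7.35 and 17.2 ± 3.52 to 26.4 ± 7.76). The array labels are kept below with that limit. Each of the 6 basal epithelial markers with a probe set, KRT5 and KRT14 among them, lay above its array's median on all 10 arrays. Of the markers of other cell types, 2 of 7 for fibroblasts (COL1A1 and DCN) and 1 of 5 for endothelium (PECAM1) lay above the median on all 10 arrays, and 1 of 3 for leukocytes (CD3E) did so on every control and ETV1 array and on no array labelled ERG. The defining markers LUM, CDH5 and PTPRC lay below the median on every array. Summed over the list, fibroblast markers ranged from 1003 to 1278 on the control arrays, 1169 to 1219 on ETV1 and 255 to 351.35 on the arrays labelled ERG, and endothelial markers from 1482 to 1660.1, 1348 to 1524 and 197 to 227. Most of the endothelial sum was the PECAM1 probe set, with means of 1393, 1256 and 163. VWF and KDR were also lower on the arrays labelled ERG, and CDH5 and TEK were dim in every group. Luminal markers ranged from 9115 to 10589, 5817 to 8405 and 11334 to 11922, sums made up mostly of KRT18 and KRT8. Those 2 had higher means on the arrays labelled ERG than in control. KLK3, KLK2, ACP3 and TMPRSS2 had lower means there, such as 131 against 573 for KLK3 and 24.4 against 145 for ACP3. Of the 6 luminal markers with a probe set, 5 lay above the median on every control array and 3 on every array labelled ERG. The part of RNA quality, of array scale and of the cells' identity in the differences below was not tested. In bulk RNA, fewer cells of a type and less RNA per cell cannot be told apart.

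ALDH3A1, an enzyme best known from the cornea and from airway and other stressed epithelia, had the widest range of the members as a ratio of its highest to its lowest array. Its single probe set (205623_at) read intensities of 39.8, 46.9 and 30.15 on the control arrays. On the ETV1 arrays it read 491, 530.05 and 514 in replicates A to C and 1570.3 in replicate D, and on the arrays labelled ERG 5.13, 17.7 and 13.4. The 3 groups did not overlap, with ETV1 highest and the arrays labelled ERG lowest, and within the ETV1 group replicates A to C lay close together while replicate D stood above them. The mean rose from 39.0 ± 8.42 (SD, n = 3) in control to 776 ± 530 (n = 4) in ETV1 cells, a ratio of 19.9. On the scale of log2(intensity + 16), which understates changes of dim probe sets, ETV1 cells were higher by 3.67 (SE 0.31). Without replicate D the ETV1 mean was 512 ± 19.4 and the difference 3.27. The arrays labelled ERG, at 12.1 ± 6.40 (n = 3), differed from control by -0.98 (SE 0.33) and from ETV1 by -4.65 (SE 0.31). The difference from control passed as deposited, but not after quantile normalization (-0.89), after centring each array on its median (-0.58) or without ERG-labelled replicate A (-0.79). ALDH3A1 lay above the array median on the 4 ETV1 arrays and on no other array. It therefore met the filter on low values only through the ETV1 arrays, so that its difference there could not have been small, and its difference between control and the arrays labelled ERG is one between dim signals.

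**Figure D1:**
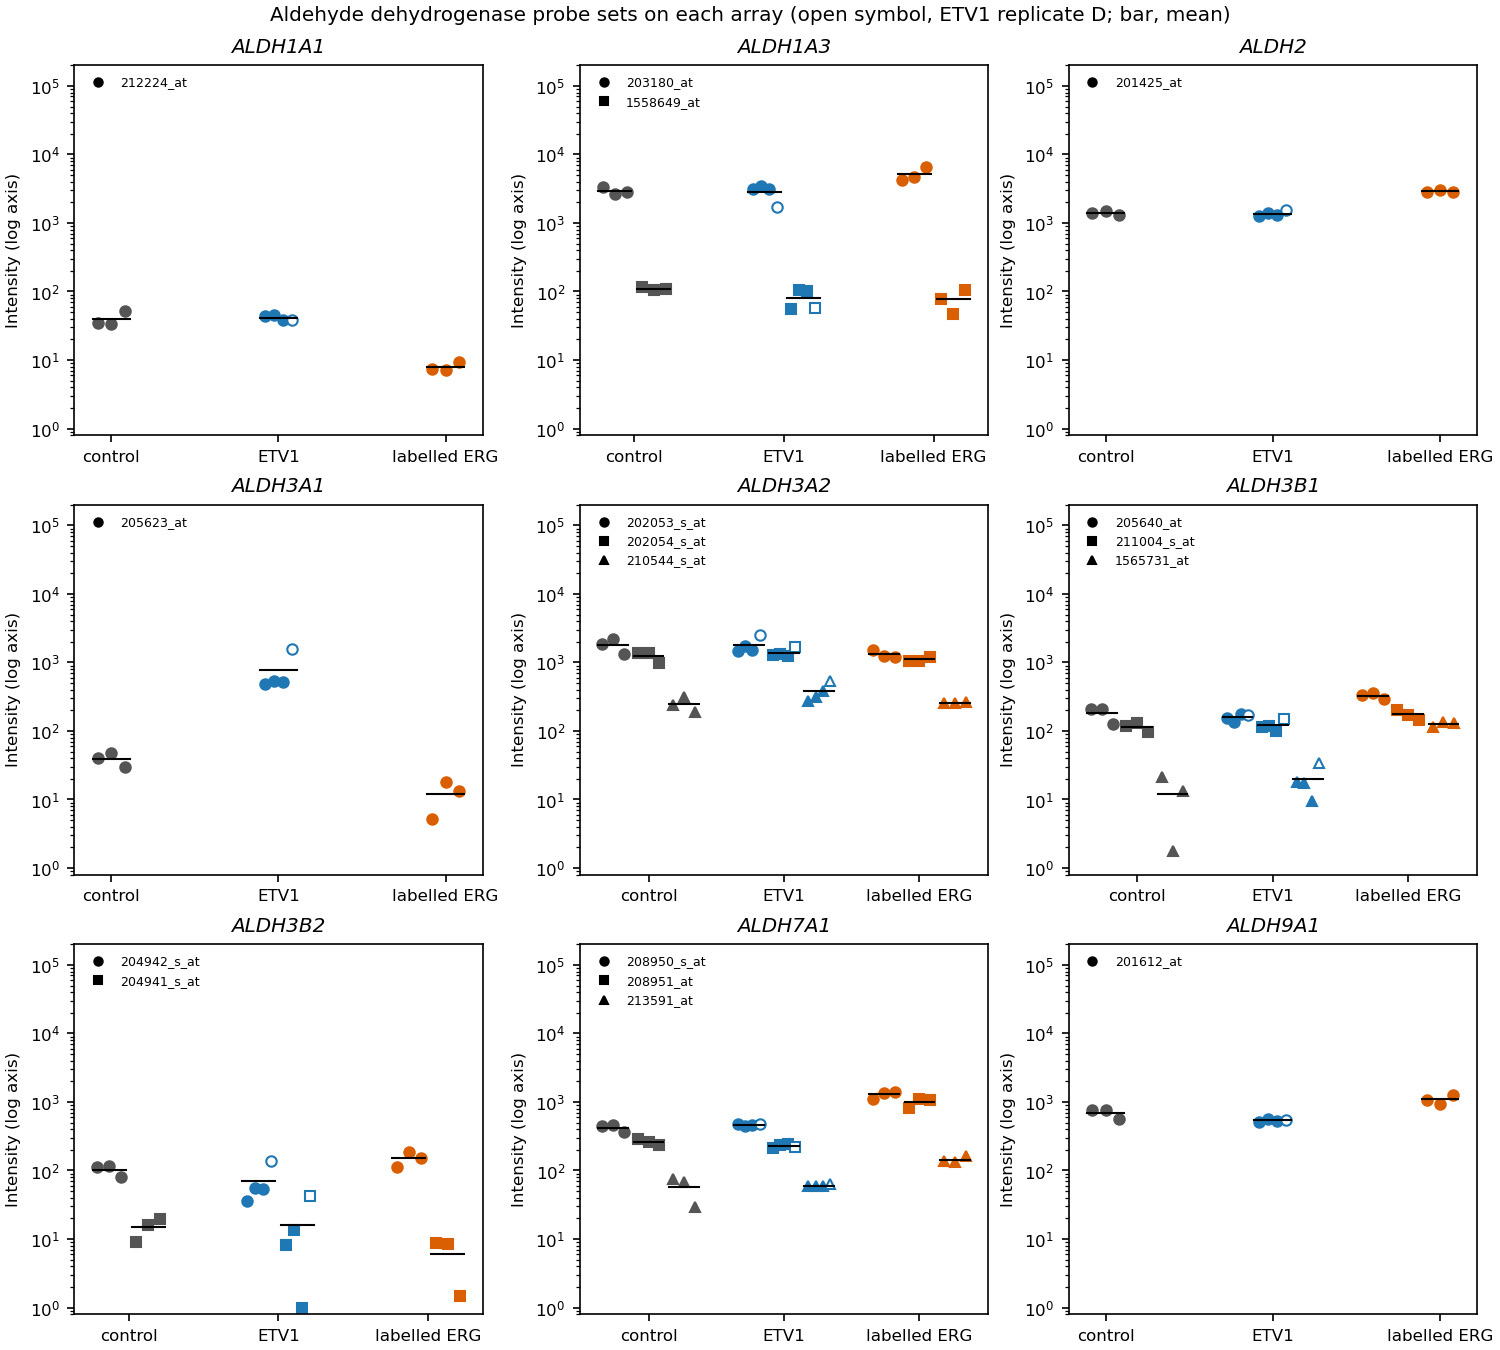
Intensity (log axis) of all 17 probe sets of the 9 aldehyde dehydrogenase genes on each array, by group, with a bar at the group mean, a symbol shape for each probe set and an open symbol for ETV1 replicate D. ALDH3A1 separates the ETV1 arrays (491 and above) from all others, whereas the ALDH7A1 and ALDH2 probe sets separate the arrays labelled ERG.

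ALDH3A2, the fatty aldehyde dehydrogenase of the endoplasmic reticulum, lies beside ALDH3A1 on chromosome 17 with 1 protein-coding gene between them (RefSeq, GRCh38.p14). Its 3 probe sets did not share the pattern of ALDH3A1. The brightest (202053_s_at) read 1883, 2224 and 1346 in control, 1446, 1747, 1514 and 2487 in ETV1 replicates A to D, and 1537, 1259.7 and 1189.8 on the arrays labelled ERG, so that control and ETV1 arrays overlapped, with a difference of -0.02 (SE 0.20). The second (202054_s_at) read 1363, 1356 and 998 in control and 1269, 1324, 1249 and 1693 in ETV1 cells (difference 0.16, SE 0.15). The dimmest (210544_s_at) went from 247 ± 64.9 (n = 3) to 378 ± 114 (n = 4), a rise of 0.57 (SE 0.20) that passed in the fit over all probe sets but not without control replicate A (0.56), control replicate C (0.40), ETV1 replicate C (0.54), ETV1 replicate D (0.40) or ERG-labelled replicate A (0.57). Its control and ETV1 arrays overlapped. The arrays labelled ERG differed from control by -0.43, -0.15 and 0.09 in the 3 probe sets as deposited, and none passed. After quantile normalization they differed by -0.96, -0.64 and 0.15, and the first pair passed.

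ALDH3B1 and ALDH3B2, which oxidise lipid-derived aldehydes at membranes, also lie close to each other, on chromosome 11. The brightest probe set of ALDH3B1 (205640_at) read 212, 209 and 126 in control, 154, 135, 175 and 173 in ETV1 cells and 334, 357 and 289 on the arrays labelled ERG. The arrays labelled ERG were above all others, by 0.82 (SE 0.18) from control. The next (211004_s_at) was at 116 ± 18.1 in control, 121 ± 21.6 in ETV1 and 174 ± 29.9 on the arrays labelled ERG, a difference of 0.52 (SE 0.17) that did not pass without ERG-labelled replicate A (0.41). The dimmest (1565731_at) read 21.2, 1.76 and 13.4 in control and 114, 135 and 130.3 on the arrays labelled ERG. It passed the filter on low values only through the arrays labelled ERG, so its difference of 2.40 (SE 0.25) could not have been small. In ETV1 cells the 3 probe sets differed from control by -0.15, 0.05 and 0.37, and none passed.

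ALDH3B2 passed the filter in 1 of its 2 probe sets (204942_s_at), which read 111, 116 and 80.8 in control, 36.4, 56.4, 53.8 and 138 in ETV1 replicates A to D, and 112, 188 and 153 on the arrays labelled ERG. Replicates A to C of ETV1 were below every control array and replicate D was above every one. The difference between ETV1 and control was -0.56 (SE 0.27) and did not pass. Without replicate D it was -0.87 and passed, but replicate D had been seen to differ, so that pass carries no weight. Between the arrays labelled ERG and control it was 0.48 (SE 0.29), which did not pass as deposited and passed after quantile normalization (0.76). The other probe set (204941_s_at) lay below the array median on all 10 arrays and was not fitted. It too read highest in ETV1 replicate D, at 42.0 against at most 13.6 in the other ETV1 arrays.

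Within the ETV1 group the ALDH3 probe sets shared a high replicate. Of the 8 fitted ALDH3 probe sets, 7 were highest in ETV1 replicate D among the ETV1 arrays, and none was lowest there. In 2 of them, ALDH3A1 and ALDH3A2 (202054_s_at), replicate D stood off by more of the range than Dixon's limit, which some ETV1 array did in 6.63% of all fitted probe sets. Over all 25969 fitted probe sets replicate D was highest in 28.8% and lowest in 36.5%. For 2 members, ALDH3A1 and ALDH3B2 (204942_s_at), replicate D was over 2-fold above each of the other ETV1 arrays (intensity plus 16), which held for 0.166% of all fitted probe sets. Relative to the mean of the other ETV1 arrays, replicate D read 3.07-fold for ALDH3A1, 2.83-fold for ALDH3B2 and 1.32- to 1.64-fold for the probe sets of ALDH3A2. Outside ALDH3 the order turned for ALDH1A3, whose bright probe set read 0.52-fold in replicate D, while the ALDH7A1, ALDH9A1 and ALDH2 probe sets there lay between 0.94- and 1.16-fold. Replicate D also had the lowest signal of ETV1 itself (844.5 against 1302 to 1689 for its brightest probe set in ETV1 cells) and of the 5 prime part of 18S ribosomal RNA (276 against 680.2 to 874, and 79.4 to 159 on the control arrays). Their part in the ALDH3 values was not tested.

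**Figure D2:**
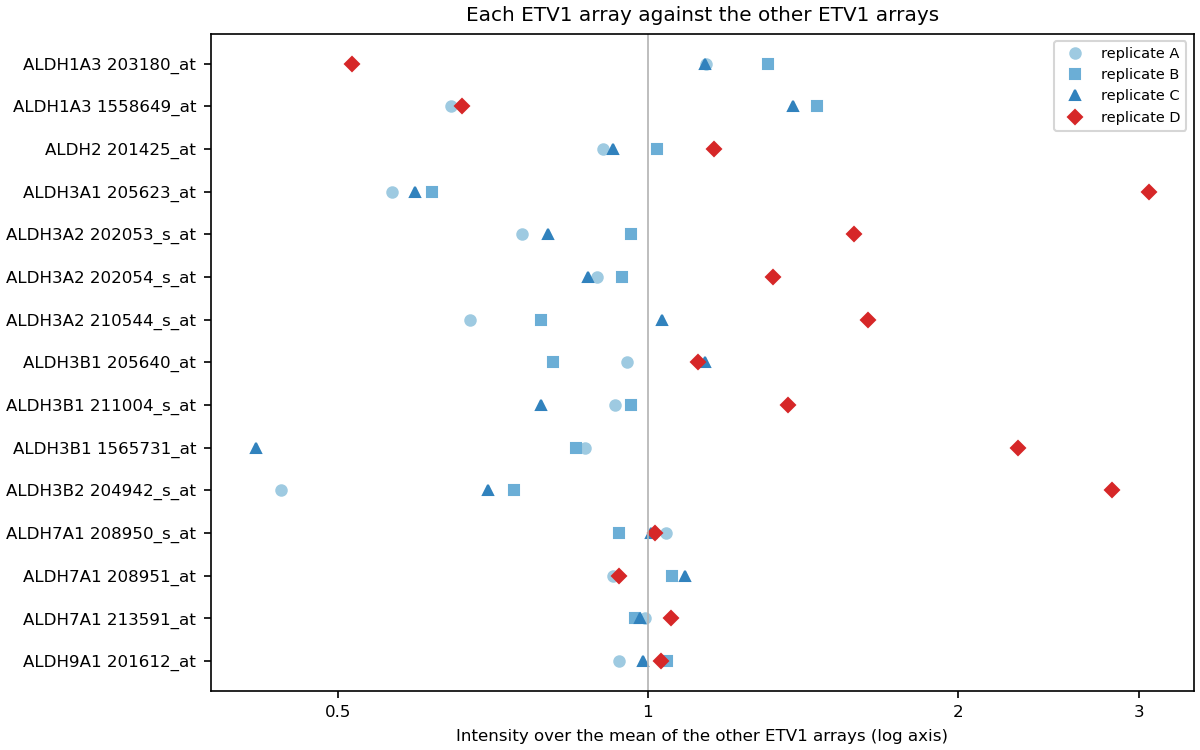
Intensity of each ETV1 array divided by the mean of the other ETV1 arrays (log axis) for the 15 fitted probe sets, with replicate D as red diamonds. Replicate D lies to the right for ALDH3A1 (3.07) and ALDH3B2 (2.83) and to the left for the bright ALDH1A3 probe set (0.52).

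ALDH1A3, the retinal dehydrogenase of many epithelia including prostate, was bright in every group. Its main probe set (203180_at) read 3306, 2612 and 2824 in control, 3154, 3486, 3149 and 1682 in ETV1 replicates A to D, and 4261, 4757 and 6475 on the arrays labelled ERG. Control and ETV1 arrays overlapped, with a difference of -0.07 (SE 0.22), which was 0.17 without replicate D and 0.12 after quantile normalization. The arrays labelled ERG were above all others, by 0.81 (SE 0.23) over control as deposited but by 0.19 after quantile normalization, where the difference no longer passed. The second probe set (1558649_at), at 110 ± 4.94 in control, 79.5 ± 26.3 in ETV1 and 76.4 ± 28.5 on the arrays labelled ERG, differed from control by -0.44 (SE 0.22) in ETV1 cells and by -0.49 (SE 0.23) on the arrays labelled ERG, the latter opposite in sign to the main probe set, and neither passed. ALDH1A1, the retinal dehydrogenase most often used as a stem cell marker, had a single probe set (212224_at) that lay below the median of each array and was not fitted. It read 34.6, 33.5 and 52.5 in control, 43.2, 45.5, 38.4 and 38.7 in ETV1 cells and 7.33, 7.05 and 9.23 on the arrays labelled ERG, where all 3 values were below those of the other arrays.

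The promoter of ALDH1A3 is shown with those of ALDH7A1 and ALDH9A1, since the brightest probe set of each read higher as deposited on the arrays labelled for the ETS factor ERG and each has 1 RefSeq promoter entry. For ALDH1A3 and ALDH9A1 that difference did not pass after quantile normalization, and the second probe set of ALDH1A3 read lower there. ALDH1A1, not shown, also has 1 entry, with GGAA 2 times, and read lower on those arrays. ALDH3B1, not shown since it has more than 1 entry, also read higher there in its brightest probe set, also after quantile normalization. GGAA was in 1 of its windows 1 time, 233 bases before the start, and in the other 0 times. ALDH3A2, not shown for the same reason, held GGAA 5 times in 1 window and 1 time in the other. The nearest lay 31 and 191 bases before the start. None of its probe sets passed as deposited on the arrays labelled ERG. After quantile normalization they differed from control by -0.96, -0.64 and 0.15. Capitals mark GGAA, the core that ETS factors bind, on either strand (TTCC where it lies on the other strand). Each window is the 250 bases before the gene's annotated start, 5′ to 3′ on the gene's own strand, in GRCh38.p14: chr15:100879581-100879830 (plus strand) for ALDH1A3, chr5:126595220-126595469 (minus strand) for ALDH7A1 and chr1:165698563-165698812 (minus strand) for ALDH9A1.
ALDH1A3: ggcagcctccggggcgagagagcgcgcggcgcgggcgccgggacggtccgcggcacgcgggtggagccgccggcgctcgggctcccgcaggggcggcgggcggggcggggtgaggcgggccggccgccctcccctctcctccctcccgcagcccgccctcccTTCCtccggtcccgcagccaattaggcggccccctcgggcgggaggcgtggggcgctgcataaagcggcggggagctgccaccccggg
ALDH7A1: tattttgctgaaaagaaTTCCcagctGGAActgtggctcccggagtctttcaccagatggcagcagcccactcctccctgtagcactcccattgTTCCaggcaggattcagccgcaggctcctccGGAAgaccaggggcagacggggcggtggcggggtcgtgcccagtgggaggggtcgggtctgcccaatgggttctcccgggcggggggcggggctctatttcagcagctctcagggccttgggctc
ALDH9A1: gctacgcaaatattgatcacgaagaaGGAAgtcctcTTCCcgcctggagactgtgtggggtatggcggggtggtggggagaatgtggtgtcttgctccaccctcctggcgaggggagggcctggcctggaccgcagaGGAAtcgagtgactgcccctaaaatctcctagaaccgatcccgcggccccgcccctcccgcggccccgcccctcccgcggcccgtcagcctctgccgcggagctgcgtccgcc
The ALDH1A3 window held GGAA 1 time, ALDH7A1 4 times and ALDH9A1 3 times, the nearest lying 85, 122 and 110 bases before the start. GGAA is common: 92.7% of all 35116 RefSeq windows of this length held it on either strand. The longer CCGGAA, which contains GGAA, was in the ALDH7A1 window 1 time and in 14.5% of all windows. GCGTG, the core bound by the aryl hydrocarbon receptor, was in the ALDH1A3 window 2 times and in 32.2% of all windows. GC content was 82.4% for ALDH1A3, 64% for ALDH7A1 and 67.2% for ALDH9A1, against a median of 58% over all windows. In all, 6 of the 9 genes had an entry, with 8 windows among them, and CCGGAA was in the ALDH7A1 window alone. These matches describe letters and not bound sites.

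ALDH7A1, or antiquitin, which oxidises aldehydes of lysine breakdown and betaine aldehyde, was higher on the arrays labelled ERG in all 3 of its probe sets. The brightest probe set (208950_s_at) read 447, 455 and 367 in control, 478, 442, 466 and 470 (469.8) in ETV1 cells and 1116, 1354 and 1396 on the arrays labelled ERG. The second (208951_at) read 285, 264 and 232 in control, 216, 239, 244 and 218 in ETV1 cells and 804, 1099 and 1059 on the arrays labelled ERG. The third (213591_at) was at 57.1 ± 24.3, 60.3 ± 1.63 and 144 ± 16.2. In each of the 3 the arrays labelled ERG lay above all others, by 1.57 (SE 0.14), 1.85 (SE 0.15) and 1.19 (SE 0.20) over control, and by 1.17, 1.55 and 1.47 after quantile normalization. The third lay above the array median on 1 control array, no ETV1 array and the 3 arrays labelled ERG, so it met the filter only through the latter and its difference adds no separate support. ETV1 and control arrays overlapped in every probe set, with differences between -0.17 and 0.14, which did not pass. Without control replicate C the third probe set differed from control by -0.19 in ETV1 cells and by 0.88 on the arrays labelled ERG.

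ALDH2 and ALDH9A1 were also higher on the arrays labelled ERG. ALDH2 (201425_at) read 1400, 1504 and 1292 in control, 1269, 1392, 1292 and 1528 in ETV1 cells and 2792, 3031 and 2816 on the arrays labelled ERG. Control and ETV1 arrays overlapped (difference -0.03, SE 0.13), and the arrays labelled ERG were above them by 1.04 (SE 0.14) over control, or by 0.43 after quantile normalization. ALDH9A1 (201612_at), which oxidises aminoaldehydes on the way to carnitine and to GABA, read 761.0, 761.1 and 558 in control, 513, 557, 534 and 551 in ETV1 cells and 1084, 922 and 1252 on the arrays labelled ERG. Its 3 groups did not overlap, with ETV1 lowest. ETV1 cells differed from control by -0.34 (SE 0.15), which did not pass as deposited and passed after quantile normalization (-0.32) and without control replicate C (-0.49). The arrays labelled ERG differed from control by 0.64 (SE 0.16), which after quantile normalization was 0.20 and did not pass.

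**Figure D3:**
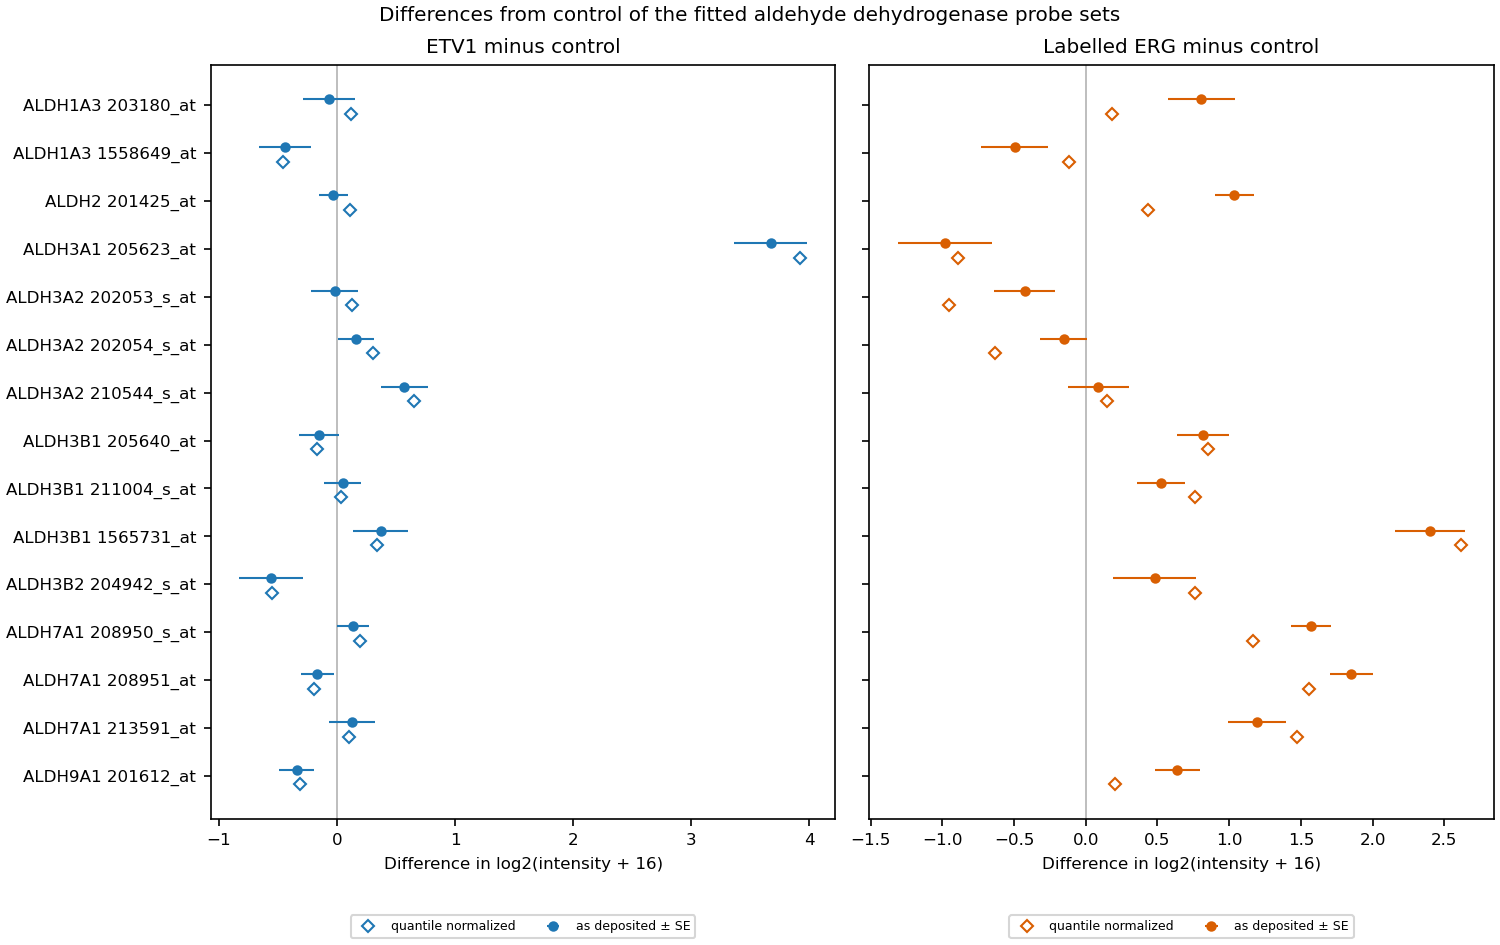
Difference from control in log2(intensity + 16) of the 15 fitted member probe sets, for ETV1 arrays (left) and arrays labelled ERG (right), as deposited with its limma standard error (filled) and after quantile normalization (open). ALDH3A1 stands alone at 3.67 on the left, and on the right the ALDH7A1 probe sets lie between 1.19 and 1.85 as deposited.

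Counted together, 15 of the 17 member probe sets passed the filter on low values, which asked for an intensity above the array median on at least 3 arrays. A probe set passed the test at a Benjamini-Hochberg adjusted p below 0.05 in limma over all fitted probe sets. Between ETV1 and control 2 members were higher and 0 lower, where 23.5% of all fitted probe sets passed, 10.4% higher and 13.1% lower. After quantile normalization 2 members were higher and 1 lower, against 14.6% and 16.7%. The arrays did not overlap in 1 member that was higher and 2 that were lower, against 15.3% and 18.8% of all fitted probe sets. At an unadjusted p below 0.05 in the same limma fit, 2 members were higher and 1 lower in ETV1 cells. No share over all fitted probe sets was counted at that threshold. The median difference of the members was -0.02, and -0.03 over all fitted probe sets. Between the arrays labelled ERG and control 9 members were higher and 1 lower (ALDH3A1), where 78.4% of all fitted probe sets passed, 43.3% higher and 35.1% lower. The median was 0.64 against 0.17 over all, and the arrays did not overlap in 9 members that were higher and 2 that were lower (42.9% and 34.0% of all). That overall median was 0.05 after quantile normalization and 0.58 after centring each array on its median, and centring moved the share of higher among called probe sets from 55.2% to 68.2%. After quantile normalization 8 members were higher and 2 lower, against 39.8% and 36.0%. Between the arrays labelled ERG and ETV1 10 members were higher and 2 lower, where 82.1% passed, 45.6% higher and 36.5% lower. There 8 were higher and 3 lower without overlap (44.9% and 35.3% of all). Both comparisons with control share the 3 control arrays, and since these contrasts were in view when the genes were chosen, nothing about the family is read from these counts.

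The genes whose values over the 10 arrays were most like those of ALDH3A1 were found from log2(intensity + 16) minus the gene's control mean, each gene read from its brightest fitted probe set. Likeness was the root mean square difference over the arrays. S100P, a calcium-binding protein, was nearest at 0.59, followed by NNMT, a nicotinamide methyltransferase, at 0.65, the microfibril gene FBN2 at 0.80, and the WNT modulator SFRP1 and the LIM protein CRIP1 at 0.82. The median over 14115 genes was 2.55. On ETV1 replicate D, where ALDH3A1 read 1570.3 against 491 to 530.05 in the others, 4 of the 5 were also highest of the ETV1 arrays: S100P (7656 against 6419 to 7199), NNMT (917 against 792 to 871), SFRP1 (2937 against 1940.4 to 2176) and CRIP1 (624 against 520.2 to 589.9). FBN2 was lowest there (2551 against 3502 to 3918). The 5 genes were picked by likeness over all 10 arrays, replicate D included, so their agreement there is partly built in. Over all fitted probe sets replicate D was highest of the ETV1 arrays in 28.8% and lowest in 36.5%. For ALDH7A1 the nearest were CYTH3 (0.07) and PANK2, EXT1 and RNF216 (0.09 each) with SLC16A14 (0.10), against a median of 0.81. For ALDH2 they were SERPINI1 (0.08), GGCT, DANCR, EBPL and POFUT4 (0.09 each), against 0.61. The likeness for these 2 members rests on the gap between the arrays labelled ERG and the rest.

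**Figure D4:**
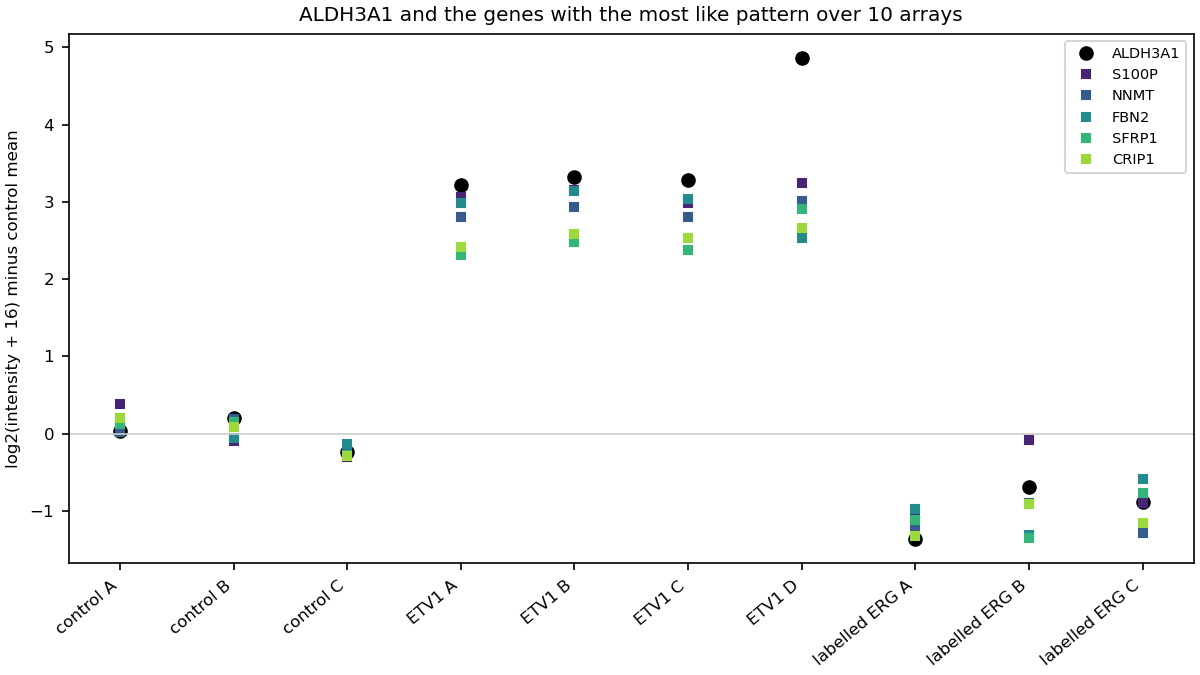
Values of log2(intensity + 16) minus the control mean for ALDH3A1 (black circles) and the 5 genes with the most like pattern (squares) on each of the 10 arrays. All 6 genes are high on the ETV1 arrays, where ALDH3A1 lies above the other 5 on each array and farthest above them on replicate D.

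The remaining 10 genes of the family are those left after the 9 were picked, with results of these data known, so their tests are not independent of that choice. They had 22 probe sets, of which 14 were fitted. In ETV1 cells 2 of these rose and 5 fell (10.4% and 13.1% of all fitted probe sets), with a median difference of 0.07 against -0.03 over all. ALDH5A1, the succinic semialdehyde dehydrogenase of GABA breakdown, fell from 94.3 ± 26.1 (n = 3) to 30.0 ± 3.28 (n = 4), by 1.23 on the log2 scale (SE 0.17, limma adjusted p = 8.8e-05). This probe set lay above the array median on 2 control arrays and no ETV1 array, so the fall is one into dim signal. The other probe set of ALDH5A1 was not fitted, and its control and ETV1 arrays overlapped (26.3 ± 10.5 and 17.6 ± 4.71). ALDH18A1, which makes the proline precursor from glutamate, fell in both of its probe sets, from 934 ± 187 to 437 ± 51.6 (difference -1.06, SE 0.15, limma adjusted p = 1.2e-04) and from 935 ± 110 to 538 ± 39.0 (-0.77, limma adjusted p = 5.4e-04). ALDH1A2, a further retinal dehydrogenase, fell by 0.59 (limma adjusted p = 0.0039) in 1 of 2 probe sets, from 51.4 ± 5.54 to 28.9 ± 4.72. That probe set was above the array median on no control or ETV1 array, so the fall is one between dim signals. ALDH16A1 fell by 0.61 (limma adjusted p = 0.011), a call that was lost without control replicate A (-0.49). ALDH1B1, a mitochondrial relative of ALDH2, rose from 91.05 ± 8.39 to 178 ± 11.8 in 1 probe set (0.86, limma adjusted p = 3.4e-04), while the other differed by 0.32 (limma adjusted p = 0.24). ALDH6A1, of valine breakdown, passed in 1 of 4 fitted probe sets (0.51, limma adjusted p = 0.025), and not without control replicate A (0.33), ETV1 replicate C (0.52) or ETV1 replicate D (0.45). That probe set met the filter without any control array. ALDH1L1 (0.14) and ALDH4A1 (0.03) did not pass, with limma adjusted p of 0.55 and 0.94, and ALDH1L2 and ALDH8A1 had no probe set above the filter.

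On the arrays labelled ERG the same 10 genes gave 6 higher and 3 lower probe sets (43.3% and 35.1% of all), with a median of 0.02 against 0.17 over all. ALDH1A2 was higher in both probe sets, by 1.13 (SE 0.14, limma adjusted p = 1.9e-06) and by 2.09 (SE 0.27, limma adjusted p = 2.7e-06). Each of them passed the filter only through these arrays. ALDH5A1 was higher by 1.38 (SE 0.18, limma adjusted p = 4.0e-06), at 268 ± 56.5 (n = 3). It too would not have met the filter without these arrays. In the unfitted probe set of ALDH5A1 these arrays overlapped control (41.3 ± 8.18 against 26.3 ± 10.5). Probe sets of 1 gene disagreed: ALDH6A1 was higher by 1.46 (limma adjusted p = 3.3e-07) in one and lower in another (-0.81, limma adjusted p = 1.6e-04), and ALDH18A1 was higher by 0.98 (limma adjusted p = 4.3e-05) in one and lower in the other (-0.40, limma adjusted p = 0.016). The lower ALDH18A1 value turned to 0.01 after centring each array on its median and did not pass without control replicate A (-0.32), control replicate B (-0.39) or ERG-labelled replicate A (-0.36). ALDH1B1 rose in 1 of 2 probe sets by 0.43 (limma adjusted p = 0.015), and not without ERG-labelled replicate B (0.30). ALDH16A1 was lower (-0.55, limma adjusted p = 0.0077), but did not pass after centring (-0.14). In the direct comparison of the arrays labelled ERG with ETV1, ALDH5A1 differed by 2.61 (SE 0.17, limma adjusted p = 9.9e-10).

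**Figure D5:**
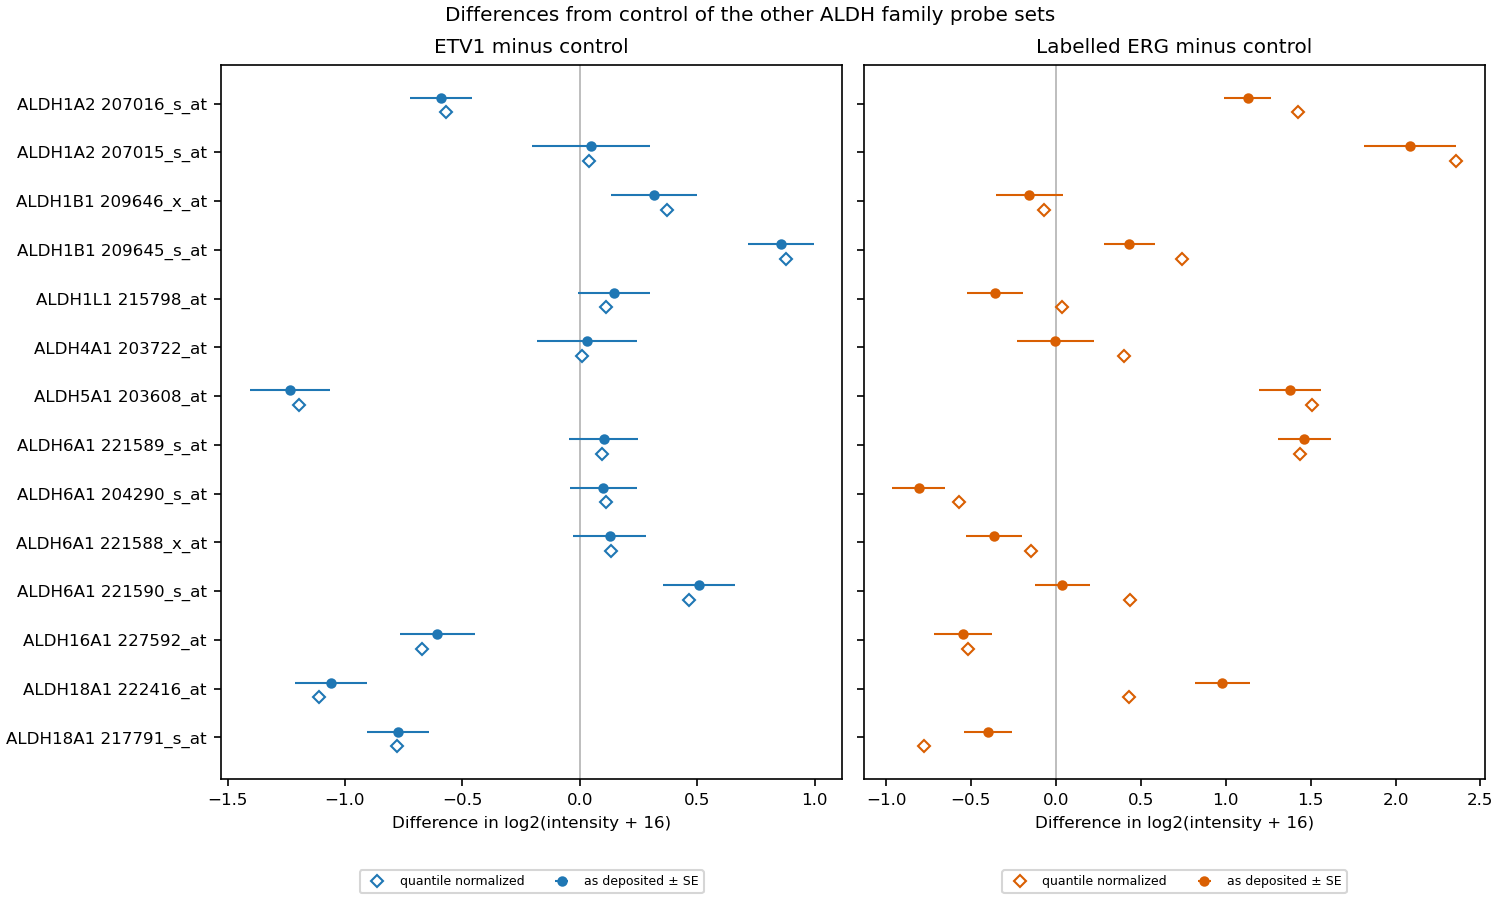
Difference from control in log2(intensity + 16) of the 14 fitted probe sets of the other ALDH family genes, drawn as for the 9 members. ALDH5A1 (-1.23) and ALDH18A1 (-1.06 and -0.77) are lowest in ETV1 cells, and the probe sets of ALDH6A1 and of ALDH18A1 lie on both sides of 0 on the arrays labelled ERG.

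Genes that act beside these enzymes were counted from each gene's brightest fitted probe set. Over all 14116 genes read this way, 8.83% were higher and 15.2% lower in ETV1 cells, and 47.9% and 32.1% on the arrays labelled ERG. The median difference over those genes was -0.06 and 0.31. In the list of the aryl hydrocarbon receptor and of NRF2, regulators known to induce ALDH3A1, 3 of 15 fitted genes rose in ETV1 cells and none fell (median 0.12). CYP1B1, a cytochrome induced by that receptor, rose from 565 ± 75.3 to 886 ± 116 (0.63, SE 0.16, limma adjusted p = 0.0083). SRXN1, the sulfiredoxin, rose by 0.46 (limma adjusted p = 0.017). TIPARP, a feedback repressor of the receptor, rose by 0.45 (limma adjusted p = 0.028), but not without control replicate B (0.49) or C (0.36) or ETV1 replicate A (0.44), B (0.44) or C (0.48). The other genes of this list did not pass, among them NQO1 (-0.09), HMOX1 (0.12) and CYP1A2 (0.05), with limma adjusted p of 0.76, 0.66 and 0.84. At an unadjusted p below 0.05 in the same limma fit, 4 genes of the list were higher and 1 lower, with no share over all genes counted at that threshold. In the retinoid list 1 of 16 rose and 1 fell (median -0.01), the latter being DHRS9, a short-chain dehydrogenase (-0.68, limma adjusted p = 0.013), a call lost without control replicate C (-0.54). DHRS9 lay above the array median on 1 control array, no ETV1 array and the 3 arrays labelled ERG. It would not have met the filter without the latter, and its fall is one between dim signals. Of 9 aldo-keto and carbonyl reductases, which reduce aldehydes to alcohols, 1 fell and none rose (median 0.10), namely AKR7A3 (-0.55, limma adjusted p = 0.0084), though not without control replicate B (-0.47). None of 3 alcohol dehydrogenases (median -0.11) and none of 9 genes of routes that form aldehydes (median 0.14) passed in limma. There 0 and 2 of them had an unadjusted p below 0.05, again without a share over all genes.

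On the arrays labelled ERG 8 of the 9 reductases were higher and 1 lower (median 0.67). AKR1C2, a hydroxysteroid reductase, was higher by 1.27 (limma adjusted p = 2.3e-04) and CBR4, a mitochondrial reductase, by 1.26 (limma adjusted p = 1.0e-06). AKR1B10, a retinal and lipid aldehyde reductase, was lower (-0.92, limma adjusted p = 0.0033), but did not pass after quantile normalization (-0.60). Of the 3 alcohol dehydrogenases ADH5, the glutathione-dependent formaldehyde dehydrogenase, was higher by 1.504 (limma adjusted p = 5.7e-07), and ADH1A and ADH4 were lower (-1.48 and -0.76, limma adjusted p = 2.4e-04 and 0.0069, the latter not passing after quantile normalization at -0.40), with a list median of -0.76. In the retinoid list 4 of 16 were higher and 6 lower (median 0.10), with the retinoic acid receptor RARB at -2.54 (limma adjusted p = 8.9e-09), RDH13 at -2.10 (limma adjusted p = 1.5e-09) and the retinol carrier RBP4 at 1.87 (limma adjusted p = 4.0e-08). Of the 15 receptor and NRF2 genes 8 were higher and 5 lower (median 0.37): the quinone reductase NQO1 by 1.49 (limma adjusted p = 8.8e-07), and the heme oxygenase HMOX1 and CYP1A2 at -1.35 each (limma adjusted p = 3.6e-06 and 4.2e-07). The 9 genes of aldehyde-forming routes split into 4 higher and 4 lower (median 0.30). SMOX, the spermine oxidase, was at -2.26 (limma adjusted p = 1.6e-09). CHDH and BHMT, genes of choline and betaine metabolism, were at -1.67 and -1.54 (limma adjusted p = 5.8e-08 and 1.4e-06). ALDH7A1 was higher by 1.57, and a link between these genes was not tested. The probe sets of AKR1C2, AKR7A3, ADH4 and CYP1A2 are of the kind that can also match related transcripts, as are ALDH1B1 209646_x_at and ALDH6A1 221588_x_at. Those with names ending in _s_at or _x_at are the probe sets left out below as shared between transcripts. They include all of ALDH3A2, the fitted one of ALDH3B2 and the brightest of ALDH7A1. RBP4 met the filter only through the arrays labelled ERG, and ADH1A, AKR1B10, RARB and BHMT only through the control and ETV1 arrays, so their differences on the arrays labelled ERG were conditioned by the filter.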

How the data were processed

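RNA from 10 samples was hybridised to HG-U133 Plus 2.0 arrays. The authors deposited 1 linear intensity per probe set and array. The values were used as deposited, and their scaling is not stated by the labels or file. Of 54675 probe sets, 41091 named 1 gene in the platform annotation, 1801 several, 11721 none and 62 were controls. Probe sets naming 1 gene and above the array median on at least 3 arrays (25969) were fitted on log2(intensity + 16) with limma 3.58.1 in R 4.3.3, with the 3 groups in 1 model (7 residual degrees of freedom). The two-sided p-values were adjusted by Benjamini-Hochberg across these probe sets, at a threshold of 0.05. The fit was tested on simulated data. The number of arrays limits the precision.

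The members and the gene lists were chosen with earlier results of these data known. All fitted probe sets of the family are given. From each other list and comparison with control, up to 3 genes were named: those with the largest differences that passed and whose arrays did not overlap. The 5 most like genes are named for members whose brightest probe set differed by at least 1. Different probe sets of a gene were kept apart, and lists used the brightest by mean intensity. Alternatives were quantile normalization, median centring, other pseudocounts, filters and thresholds, 2 groups alone, the replicate letter as a block, and each array left out. Promoters came from RefSeq (GRCh38.p14).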

Additional observations from a re-analysis of the deposited data

Results flagged for a closer look

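In ETV1 cells ALDH3A1 (205623_at) read 1570.28 in replicate D against 491 to 530.05 in the other ETV1 arrays, a gap that was 0.96 of the whole range. ALDH3A2 (202054_s_at) read 1692.7 in replicate D against 1249 to 1324, a gap of 0.83 of the range. Both were picked out because 1 sample lay far from the rest of its group. By chance about 5% of groups are picked out this way, and among all fitted probe sets 6.63% of the ETV1 groups were.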

How the results depend on the processing

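Over all fitted probe sets, 6102 passed between ETV1 and control. The count was 3554 with the brightest probe set per gene, 3352 without probe sets shared between transcripts, 3454 at a threshold of 0.01, and 4087 to 7155 with 1 array left out. Between the arrays labelled ERG and control 20359 passed, against 11154 with a filter at the 75th percentile, 11351 with the brightest probe set, 12816 without shared probe sets, and 17733 to 20295 with 1 array left out. Between the arrays labelled ERG and ETV1 the 21333 became 11848, 11874 and 13380 under the same settings, and 18697 to 21441 with 1 array left out. Fewer probe sets were tested in the filtered fits. Of the members, 2 were higher in ETV1 cells, and 1 without the filter, with the brightest probe set, without shared probe sets, with 2 groups alone, with the replicate block, with a pseudocount of 1 and at 0.01 (1 to 2 with 1 array left out). The 0 lower members became 1 after quantile normalization and with the replicate block (0 to 1 with 1 array left out). On the arrays labelled ERG the 9 higher members became 5 with the brightest probe set (7 to 10 with 1 array left out). The 1 lower member became 2 after quantile normalization, without the filter and with 2 groups alone, 3 with the replicate block, and 0 after median centring, with a pseudocount of 64 and at 0.01 (0 to 2 with 1 array left out). Against ETV1 the 10 higher members became 6 with the 75th percentile filter and with the brightest probe set (8 to 10), and the 2 lower became 1 after median centring, with the brightest probe set, without shared probe sets, with the replicate block, with a pseudocount of 1 and at 0.01 (1 to 3). After quantile normalization the differences of SRXN1 and TIPARP on the arrays labelled ERG turned from 0.37 and 0.43 to -0.17 and -0.14. After median centring ALDH18A1 (217791_s_at) turned from -0.40 to 0.0067 there, and ALDH1B1 (209645_s_at) from -0.43 to 0.004 against ETV1. Where no construction is named, the cause was not tested. ALDH3A1 was higher in ETV1 cells in every alternative run, from 2.86 (pseudocount 64) to 4.11 (pseudocount 1). It was chosen with that rise in view and the runs share the same arrays, so this adds no support.

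The replicate letters did not pair the arrays: deviations of arrays with the same letter correlated between -0.099 and 0.057. With the replicate block, fitted on replicates A to C and so without ETV1 replicate D, 5251, 20028 and 20547 probe sets passed in the 3 comparisons.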
